A study of Mus musculus with 11 samples.

Results

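The 36 aminoacyl-tRNA synthetase genes followed here comprise 20 whose product acts in the cytosol and 16 whose product, named with a closing 2, acts in mitochondria. They were listed by name and taken from the arrays wherever a probe set carried one of them as its only gene symbol. This held for 34 of 36 genes, namely 18 of the 20 cytosolic and all 16 mitochondrial ones, out of 16147 genes with a probe set of this kind among the probe sets tested. All 34 passed the filter on low values. Aars, whose probe set also carries Exosc6, and Dars were not analysed here, and Mars is annotated under its current symbol Mars1. RNA came from mouse embryonic fibroblasts (MEFs) of a C57BL/6 x 129/SvJ background that were homozygous for p53LSL, an allele silenced by a removable stop cassette. Every group, controls included, had p53 restored with adenoviral Cre (multiplicity of infection 5, 24 h), was transfected, and 24 h later received 150 nM doxorubicin, a DNA-damaging drug, for 12 h. The 11 arrays fall into Pint ASO (3 arrays, a pool of antisense oligonucleotides against the p53-induced long non-coding RNA Pint), control ASO (2 arrays), p53 siRNA (3 arrays) and control siRNA (3 arrays), and the design asks what each knockdown changes against its own control. The sources used here do not say whether the arrays of a group came from separate cultures or embryos, so the p-values cover only the spread among the arrays, which may be technical.

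Aminoacyl-tRNA synthetases attach each amino acid to its transfer RNAs and so set the meaning of the codons that ribosomes read. Mammals keep a cytosolic set and a mitochondrial set, both encoded in the nucleus. Most cytosolic genes have a mitochondrial counterpart, while Kars and Gars supply both compartments and glutaminyl-tRNA in mitochondria is made from glutamyl-tRNA by an amidotransferase. Several cytosolic enzymes assemble with the scaffold proteins Aimp1, Aimp2 and Eef1e1 into the multisynthetase complex. Many cytosolic genes are known targets of ATF4, the transcription factor that the integrated stress response produces when amino acids run short or proteins misfold, and ATF4 binds C/EBP-ATF response elements together with C/EBP proteins.

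The arrays separated by group for the transcript targeted by the ASO. Lncpint, the gene of Pint, had log2 values of 8.60, 8.48 and 8.55 in Pint ASO arrays, against 10.41 and 10.23 in control ASO arrays. It had 9.13, 9.02 and 9.06 in p53 siRNA arrays, against 9.43, 9.88 and 9.53 in control siRNA arrays. Both knockdowns lowered it (log2 change of -1.78, SE 0.12, and of -0.54), and it was 0.71 higher in control ASO arrays than in control siRNA arrays. The p53 transcript itself was not analysed here. Pairs of arrays correlated at 0.9926 to 0.995 in the same group and at 0.9832 to 0.9933 in different groups. All 12 fibroblast markers listed, Col1a1, Dcn and Vim among them, passed the filter on low values. Their per-array mean was 11.86 to 11.93 in Pint ASO arrays, against 12.32 to 12.33 in control ASO arrays, and 12.73 to 12.75 in p53 siRNA arrays, against 12.43 to 12.46 in control siRNA arrays. Of these 12 markers, 10 were lower with Pint ASO at an adjusted p under 0.05, where 10.7% of all probe sets tested were lower. By the same rule 7 were higher with p53 siRNA, where 7.97% of all probe sets were higher. The part of this shift in the results on synthetases was not tested. Markers of other cell types were also measured and some of them moved. Of 22 such markers in 5 lists (epithelium, macrophages and blood, endothelium, skeletal muscle and neural cells), 18 passed the filter, and Epcam, Ptprc, Adgre1 and Myh3 did not. Their counts with Pint ASO stand beside 8.49% of all probe sets tested that were higher and 10.7% that were lower. The same shares with p53 siRNA were 7.97% and 8.96%. With Pint ASO, 1 was higher, the endothelial Kdr (0.77), and 4 were lower, the epithelial Cdh1 (-0.68), the macrophage marker Cd68 (-0.47), the muscle marker Des (-0.35) and the endothelial Tek (-0.17). With p53 siRNA, 0 were higher and 5 lower, namely Cd68 (-1.04), Des (-0.87), the neural marker Sox2 (-0.66), the macrophage marker Cd14 (-0.51) and the epithelial Krt18 (-0.20). Cdh1 and Krt18 were also lower in control ASO than in control siRNA arrays. The per-array mean of the 5 epithelium markers was 7.28 to 7.38 in Pint ASO arrays, against 7.41 to 7.50 in control ASO arrays, and 7.54 to 7.60 in p53 siRNA arrays, against 7.63 to 7.69 in control siRNA arrays. That of the 5 macrophage and blood markers was 7.17 to 7.23 in Pint ASO arrays, against 7.28 to 7.31 in control ASO arrays, and 6.99 to 7.02 in p53 siRNA arrays, against 7.28 to 7.32 in control siRNA arrays. Both of these means were thus lower with either knockdown without overlap. They include Epcam, Ptprc and Adgre1, which did not pass the filter, and not every tested member was called lower. With Pint ASO, Krt8 (-0.02), Krt14 (-0.01), Krt18 (0.00), Cd14 (-0.17) and Csf1r (-0.06) were not called. With p53 siRNA, Cdh1 (0.04), Krt8 (-0.03), Krt14 (-0.12) and Csf1r (-0.03) were not called. The mean of the 4 endothelium markers was 7.12 to 7.16 in Pint ASO arrays, against 6.82 to 6.93 in control ASO arrays, and 6.87 to 6.96 in p53 siRNA arrays, against 6.78 to 6.87 in control siRNA arrays. That of the 4 muscle markers was 6.55 to 6.73 in Pint ASO arrays, against 6.70 to 6.75 in control ASO arrays, and 6.52 to 6.61 in p53 siRNA arrays, against 6.71 to 6.76 in control siRNA arrays. The 4 neural markers averaged 7.65 to 7.75 in Pint ASO arrays, against 7.55 to 7.63 in control ASO arrays, and 7.35 to 7.42 in p53 siRNA arrays, against 7.48 to 7.68 in control siRNA arrays. The part of these markers in the results on synthetases was not tested.

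Most cytosolic synthetase transcripts were higher with the Pint ASO, and few mitochondrial ones were. Of the 18 cytosolic genes, 13 were higher in Pint ASO than in control ASO at an adjusted p under 0.05 in limma (linear models moderated across all probe sets) and 0 were lower, where 8.49% of all 26038 probe sets tested were higher and 10.7% lower. Their median log2 fold change was 0.28, with a range of -0.12 to 0.69, against 0.00 over all probe sets tested. Of the 16 mitochondrial genes, 3 were higher and 0 lower, with a median of 0.04 and a range of -0.18 to 0.46. At an unadjusted p under 0.05 in limma, 15 cytosolic genes were higher and 0 lower, and 5 mitochondrial genes were higher and 1 lower. The Pint ASO arrays lay above the control ASO arrays without overlap in 15 of 18 cytosolic and 7 of 16 mitochondrial genes, which held for 18.2% of all probe sets. On the per-array mean over the 18 cytosolic genes, Pint ASO arrays stood at 11.56, 11.63 and 11.54, against 11.35 and 11.25 in control ASO arrays. The same mean over the 16 mitochondrial genes was 8.96, 9.05 and 8.97 in Pint ASO arrays, against 8.93 and 8.89 in control ASO arrays, so the groups were also apart there but by a smaller distance. In RNA from whole cultures, a change in RNA per cell and a change in the share of cells of a kind cannot be told apart.

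**Figure D1:**
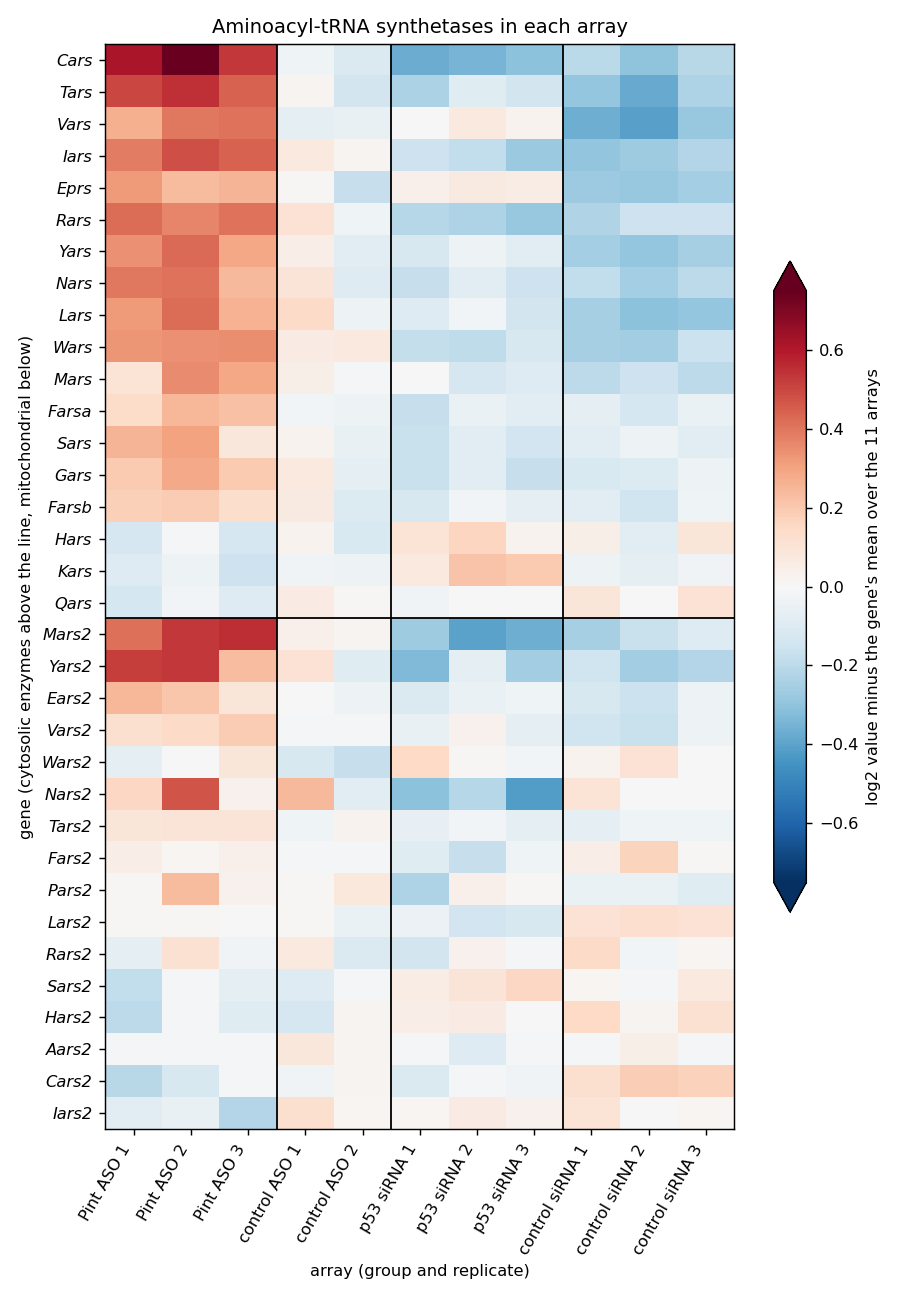
Log2 value of each of the 34 genes (rows) in each of the 11 arrays (columns, by group), shown as the difference from the mean of that gene over all arrays (colour). In the upper block, the 18 cytosolic genes, most rows are highest in the 3 Pint ASO arrays, while Hars, Kars and Qars are not, and in the lower block Mars2 and Yars2 stand out.

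Cars, which codes for the cysteinyl enzyme (Entrez gene 27267), had the largest change of the 34 genes. It measured 11.33, 11.46 and 11.25 in Pint ASO arrays, against 10.69 and 10.61 in control ASO arrays, a log2 fold change of 0.69 (SE 0.07, adjusted p = 0.000185) or 1.61-fold. All Pint ASO arrays lay above all other arrays of the series for this gene. Tars, for the threonyl enzyme (Entrez gene 110960), measured 10.70, 10.75 and 10.64 in Pint ASO arrays, against 10.22 and 10.06 in control ASO arrays, and its log2 fold change was 0.56 (SE 0.07, adjusted p = 0.000844). Vars, for the valyl enzyme, measured 11.06, 11.19 and 11.20 in Pint ASO arrays, against 10.73 and 10.74 in control ASO arrays (0.41, SE 0.06, adjusted p = 0.00146). Neither group overlapped the other in Tars or Vars, and the spread within each group was smaller than the distance between them. Iars, for the isoleucyl enzyme, measured 12.78, 12.88 and 12.84 in Pint ASO arrays, against 12.47 and 12.42 in control ASO arrays (0.39, SE 0.06, adjusted p = 0.00121). A second probe set of Iars gave 0.40, with an adjusted p of 0.000602. Eprs, the bifunctional gene that charges both glutamate and proline tRNAs, measured 11.79, 11.71 and 11.73 in Pint ASO arrays, against 11.48 and 11.30 in control ASO arrays (0.36, SE 0.06, adjusted p = 0.00265). Here the pair of control ASO arrays was farther apart than the Pint ASO arrays, though still below all of them. Rars, for the arginyl enzyme, measured 13.54, 13.49 and 13.53 in Pint ASO arrays, against 13.23 and 13.09 in control ASO arrays (0.36, SE 0.06, adjusted p = 0.00201).

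The other 7 cytosolic genes that rose had log2 fold changes of 0.22 to 0.36. They were Yars (0.36), Nars (0.35), Lars (0.29), Wars (0.28), Farsa (0.23), Sars (0.23) and Gars (0.22), for the tyrosyl, asparaginyl, leucyl and tryptophanyl enzymes, the alpha subunit of the phenylalanyl enzyme, and the seryl and glycyl enzymes. The leucyl enzyme is also known as a leucine sensor upstream of mTORC1. Of the 5 cytosolic genes that did not pass, Mars (0.23, adjusted p = 0.0624) and Farsb, the beta subunit of the phenylalanyl enzyme (0.19, adjusted p = 0.0718), had values on the same side, and in both the Pint ASO arrays lay above the control ASO arrays. Hars (-0.03), Kars (-0.07) and Qars (-0.12, adjusted p = 0.175), for the histidyl, lysyl and glutaminyl enzymes, were the cytosolic genes with values below 0. Without control ASO replicate 2, 8 of 18 cytosolic genes were called, and the calls of Farsa, Gars, Lars, Nars and Sars were lost. The call of Sars was lost when any array other than Pint ASO replicate 3 was left out (adjusted p up to 0.191), that of Gars without any 1 Pint ASO array (up to 0.193), and that of Farsa without control ASO replicate 1 or Pint ASO replicate 2 (up to 0.0845). Fitted on the Pint ASO and control ASO arrays alone, 5 of 18 were called.

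**Figure D2:**
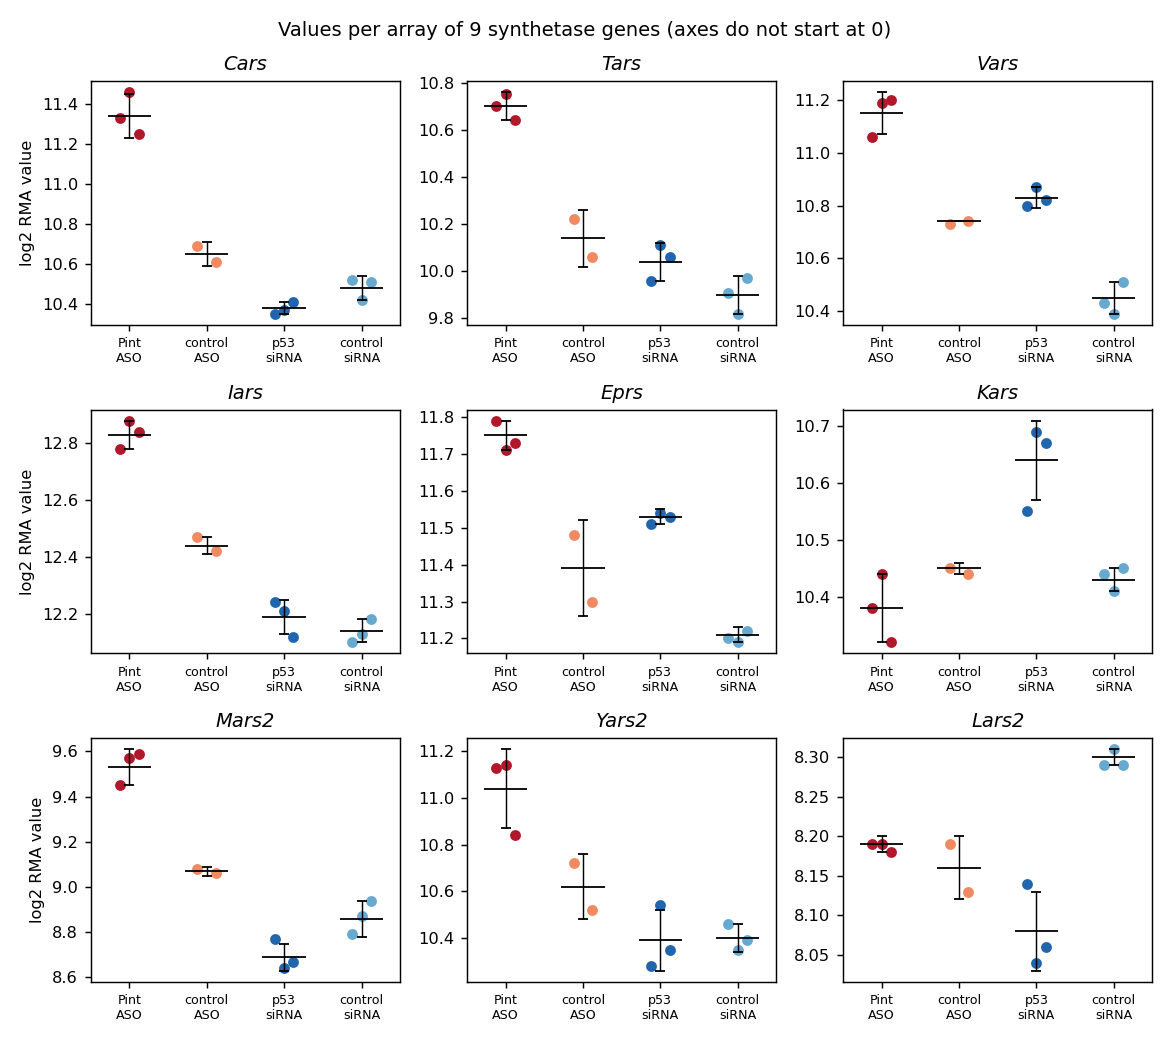
Log2 RMA value (vertical axis) of 9 synthetase genes in each array (points), with the mean (line) and SD (bars) of each group. Cars, Tars, Vars, Iars, Eprs, Mars2 and Yars2 are highest in Pint ASO arrays, Kars is highest in p53 siRNA arrays, and Lars2 is highest in control siRNA arrays.

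Among mitochondrial enzymes, 3 genes passed the test with Pint ASO, all of them higher. Mars2, which charges the methionine tRNA used to begin and continue mitochondrial proteins (Entrez gene 212679), measured 9.45, 9.57 and 9.59 in Pint ASO arrays, against 9.08 and 9.06 in control ASO arrays. Its log2 fold change of 0.46 (SE 0.07, adjusted p = 0.00127) was the largest of the mitochondrial genes, with no overlap between the groups. Yars2, for the mitochondrial tyrosyl enzyme, measured 11.13, 11.14 and 10.84 in Pint ASO arrays, against 10.72 and 10.52 in control ASO arrays (0.42, SE 0.11, adjusted p = 0.0278). Pint ASO replicate 3 was low among its group for Yars2, and the call was lost without replicate 1 or 2 of Pint ASO or without control ASO replicate 2 (adjusted p of 0.0853, 0.0759 and 0.167). Ears2, which charges the glutamate that the amidotransferase later converts, measured 8.40, 8.36 and 8.24 in Pint ASO arrays, against 8.15 and 8.11 in control ASO arrays (0.20, SE 0.06, adjusted p = 0.045). It stood close to the threshold, and its call was lost when any array other than Pint ASO replicate 3 was left out, with adjusted p up to 0.162. Thus 1 of 16 mitochondrial genes, Mars2, was called without control ASO replicate 2 or without replicate 1 or 2 of Pint ASO. The other 13 mitochondrial genes had values between -0.18 for Iars2 (adjusted p = 0.0751) and 0.16 for Vars2 (adjusted p = 0.087).

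Setting each cytosolic gene beside its mitochondrial counterpart for the same amino acid gave 12 pairs. The cytosolic gene had the higher log2 fold change with Pint ASO in 10 of 12 pairs, with a median difference of 0.26. The widest gaps were those of Cars with 0.69 and Cars2 with -0.11, of Iars with 0.39 and Iars2 with -0.18, and of Tars with 0.56 and Tars2 with 0.10. The order was turned for methionine, where Mars2 had 0.46 and Mars 0.23, and for tyrosine, where Yars2 had 0.42 and Yars 0.36. Hars and Hars2, which lie next to each other in the mouse genome, were at -0.03 and -0.04. None of these differences between genes was tested.

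**Figure D3:**
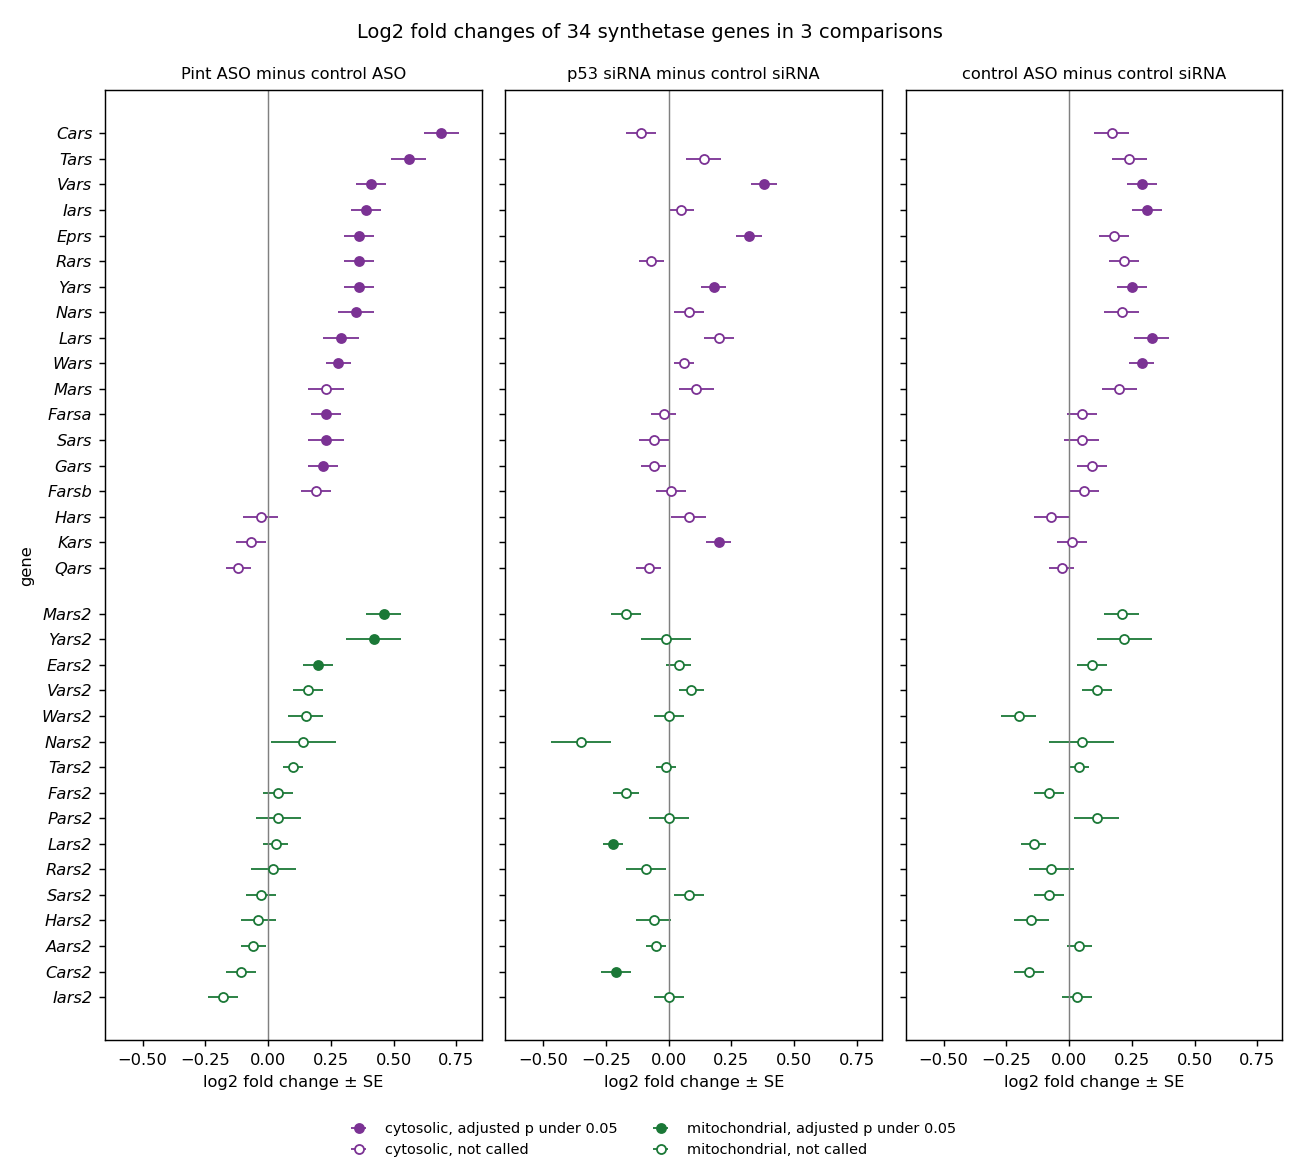
Log2 fold change (horizontal axis) with its moderated SE (bars) of the 18 cytosolic (purple) and 16 mitochondrial (green) synthetase genes in 3 comparisons, filled where the adjusted p is under 0.05. With Pint ASO, the cytosolic genes have a median of 0.28 and run up to 0.69 for Cars. The mitochondrial genes have a median of 0.04 and run up to 0.46 for Mars2. The right panel shares control arrays with each of the others.

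Known regulation and structure divide the synthetase genes in different ways, and all of these lists were written with results of these data known. The counts below stand beside 8.49% of all probe sets tested that were higher with Pint ASO. Of 12 genes listed as bound by ATF4, 11 were higher with Pint ASO, with a median log2 fold change of 0.35 and a range of 0.22 to 0.69, and Mars was the member that did not pass. Of the 6 other cytosolic genes, 2 were higher (Rars and Farsa), with a median of 0.08. Of the 7 enzymes of the multisynthetase complex, 4 were higher with a median of 0.29 (Iars, Eprs, Rars and Lars), and of the 11 cytosolic genes outside it 9 were higher with a median of 0.28. The medians inside and outside the complex thus lay close together, while those of the listed ATF4 targets and the other cytosolic genes were apart. None of these differences between lists was tested. The split by catalytic fold took cytosolic and mitochondrial genes together. Of 18 genes of class I, whose active site is a Rossmann fold, 10 were higher with a median of 0.25, the mitochondrial Mars2, Yars2 and Ears2 among them. Of 15 genes of class II, built on an antiparallel sheet, 5 were higher with a median of 0.10. Eprs joins a part of each class and was counted in neither.

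Promoter sequence was read for the genes that the RefSeq promoter table (GRCm38.p6) holds, in 300 bases from 250 before to 50 after the annotated start of the transcript. It matched 25 of the 34 genes, and Cars, Hars, Hars2, Lars, Nars, Pars2, Rars, Vars and Wars were not matched. The motif TGATGNAA, a form of the C/EBP-ATF response element, was searched on either strand, and a promoter of 4 genes held it, Gars, Iars, Tars and Yars. These are 4 of 11 cytosolic and 0 of 14 mitochondrial genes, against 4.51% of the 27025 genes and 3.97% of the 32851 promoters in the table. All 4 are cytosolic genes that rose with Pint ASO, and they are among 7 such genes with a promoter in the table. A match is a description of these letters and not of binding. The stretch from 100 bases before to 20 after the start is shown for the 4 genes, since the motif lies near the start in each, with the motif in capitals, and for Mars2, the mitochondrial gene with the largest rise, which holds none. The windows are chr6:55037901-55038020 on the plus strand for Gars, chr13:49682030-49682149 on the plus strand for Iars, chr15:11399639-11399758 on the minus strand for Tars, chr4:129189803-129189922 on the plus strand for Yars and chr1:55237077-55237196 on the plus strand for Mars2.
Gars: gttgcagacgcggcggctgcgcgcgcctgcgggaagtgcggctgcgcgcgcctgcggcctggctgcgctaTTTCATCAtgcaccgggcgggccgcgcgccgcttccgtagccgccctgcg
Iars: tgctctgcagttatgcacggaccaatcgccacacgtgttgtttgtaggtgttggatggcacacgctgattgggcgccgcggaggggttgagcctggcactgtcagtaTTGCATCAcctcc
Tars: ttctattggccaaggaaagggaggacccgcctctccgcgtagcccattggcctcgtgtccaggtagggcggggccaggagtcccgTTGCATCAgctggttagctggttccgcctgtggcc
Yars: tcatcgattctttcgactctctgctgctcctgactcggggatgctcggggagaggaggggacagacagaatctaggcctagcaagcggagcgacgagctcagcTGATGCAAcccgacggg
Mars2: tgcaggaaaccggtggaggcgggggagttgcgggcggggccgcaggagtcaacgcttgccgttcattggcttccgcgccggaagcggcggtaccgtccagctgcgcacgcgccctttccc
The first base of the motif lies at -30 in Gars and -15 in Tars, and at 8 and 4 in Iars and Yars, counted from the first transcribed base as 1. It reads on the plus strand of the gene in Yars and on the opposite strand in Gars, Iars and Tars.

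With p53 siRNA a few cytosolic synthetase transcripts were higher. Of the 18 cytosolic genes, 4 were higher in p53 siRNA than in control siRNA and 0 lower, where 7.97% of all probe sets were higher and 8.96% lower. Of the 16 mitochondrial genes, 0 were higher and 2 lower (12.5%), a share near that of all probe sets. At an unadjusted p under 0.05 in limma, 5 cytosolic genes were higher and 0 lower, and 0 mitochondrial genes were higher and 5 lower. The median log2 fold change was 0.07 over cytosolic and -0.03 over mitochondrial genes, against 0.01 over all probe sets. The groups did not overlap, with p53 siRNA above, in 7 of 18 cytosolic and 0 of 16 mitochondrial genes (17.1% of all probe sets), and with p53 siRNA below in 1 of 18 and 5 of 16 (18.6% of all probe sets). In the pairs, the cytosolic gene had the higher value in 11 of 12, with seryl enzymes as the exception (Sars at -0.06 and Sars2 at 0.08) and a median difference of 0.15.

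Vars led the cytosolic genes with 10.80, 10.87 and 10.82 in p53 siRNA arrays, against 10.43, 10.39 and 10.51 in control siRNA arrays, a log2 fold change of 0.38 (SE 0.05, adjusted p = 0.00102). Eprs followed with 11.51, 11.54 and 11.53 in p53 siRNA arrays, against 11.20, 11.19 and 11.22 in control siRNA arrays (0.32, SE 0.05, adjusted p = 0.00235). In both genes the groups were apart, by more than the spread within either. Kars, whose enzyme serves the cytosol and mitochondria, measured 10.55, 10.69 and 10.67 in p53 siRNA arrays, against 10.44, 10.41 and 10.45 in control siRNA arrays (0.20, SE 0.05, adjusted p = 0.0248). Yars measured 10.87, 10.95 and 10.90 in p53 siRNA arrays, against 10.73, 10.70 and 10.74 in control siRNA arrays (0.18, SE 0.05, adjusted p = 0.041). The calls of Kars and Yars were lost without any single control siRNA array, and Kars without p53 siRNA replicate 2 or 3 and Yars without any 1 p53 siRNA array or Pint ASO replicate 1, with adjusted p up to 0.0912 for Kars and 0.13 for Yars. The remaining cytosolic genes had values from -0.11 for Cars (adjusted p = 0.305) to 0.20 for Lars (adjusted p = 0.0577).

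The mitochondrial genes that fell with p53 siRNA were Lars2 and Cars2. Lars2, for the mitochondrial leucyl enzyme, measured 8.14, 8.04 and 8.06 in p53 siRNA arrays, against 8.29, 8.31 and 8.29 in control siRNA arrays (-0.22, SE 0.04, adjusted p = 0.0057). Cars2, for the mitochondrial cysteinyl enzyme, measured 8.82, 8.92 and 8.90 in p53 siRNA arrays, against 9.05, 9.11 and 9.10 in control siRNA arrays (-0.21, SE 0.06, adjusted p = 0.0361). In neither gene did the groups overlap. The call of Cars2 was lost without any single array of either siRNA group or without Pint ASO replicate 2, with adjusted p up to 0.119, and that of Lars2 was kept without any 1 array. Nars2, for the mitochondrial asparaginyl enzyme, had the widest value (-0.35, SE 0.12) and did not pass (adjusted p = 0.0802). It measured 8.26, 8.35 and 8.15 in p53 siRNA arrays, against 8.67, 8.57 and 8.57 in control siRNA arrays.

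The 2 effects share no array, and their difference was tested for each gene. It passed for 8 of 18 cytosolic genes, 7 with the higher effect under Pint ASO and 1 with the lower, and for 2 of 16 mitochondrial genes, both with the higher effect under Pint ASO. Over all probe sets the difference was positive and called for 9.15% and negative and called for 9.40%. Cars stood farthest apart, with 0.69 under Pint ASO and -0.11 under p53 siRNA, a difference of 0.80 (SE 0.09, adjusted p = 0.000332). Mars2 had 0.46 under Pint ASO and -0.17 under p53 siRNA (difference 0.63, SE 0.09, adjusted p = 0.00102). Rars (0.43, SE 0.07, adjusted p = 0.0036), Tars (0.42, SE 0.10, adjusted p = 0.0164) and Iars (0.34, SE 0.07, adjusted p = 0.0113) were also higher under Pint ASO. Kars was the only gene called with a negative difference (-0.27, SE 0.08, adjusted p = 0.0385), at -0.07 under Pint ASO and 0.20 under p53 siRNA. In Vars and Eprs, which both knockdowns raised, the difference was 0.03 (SE 0.08, adjusted p = 0.868) and 0.04 (SE 0.08, adjusted p = 0.839). With Yars, 3 genes were called higher under both, which are 3 of the 16 called higher with Pint ASO and 3 of the 4 called higher with p53 siRNA. No gene of the 34 was called in opposite directions. Across the 34 genes the effects had a Pearson r of 0.27 and a Spearman rho of 0.26, a description over genes of the same arrays. Fewer cytosolic differences passed when single arrays were left out, 3 of 18 without control ASO replicate 2, 4 without any 1 control siRNA array or p53 siRNA replicate 3, and 5 without replicate 1 or 2 of Pint ASO or of p53 siRNA. Cars, Iars, Rars and Mars2 passed without any 1 array, while the call of Tars was lost without control ASO replicate 2 (adjusted p = 0.0739) and that of Kars in 9 of the 11 cases (adjusted p up to 0.0948).

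**Figure D4:**
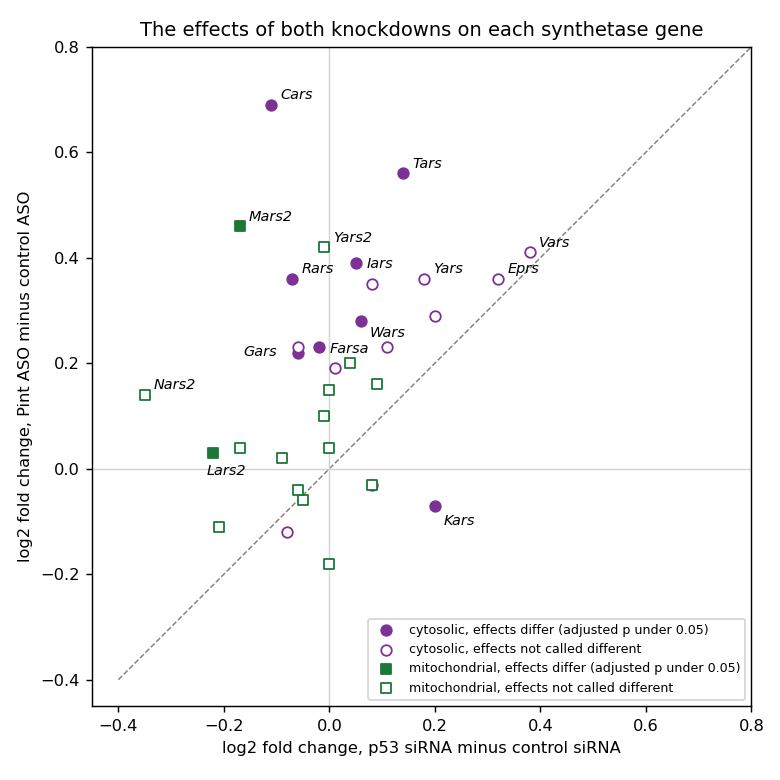
Log2 fold change with Pint ASO (vertical axis) against that with p53 siRNA (horizontal axis) for each of the 34 genes, filled where the test of the difference has an adjusted p under 0.05. Points on the dashed line have equal effects, as Vars and Eprs nearly do, and Cars lies farthest above it at 0.69 and -0.11.

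The controls also differed from each other in cytosolic synthetase transcripts. Of the 18 cytosolic genes, 5 were higher in control ASO arrays than in control siRNA arrays and 0 lower, where 2.29% of all probe sets were higher, and of the 16 mitochondrial genes 0 were called. At an unadjusted p under 0.05 in limma, 11 cytosolic genes were higher and 0 lower, and 1 mitochondrial gene was higher and 3 lower. The median log2 difference was 0.19 over cytosolic and 0.03 over mitochondrial genes, against -0.01 over all probe sets. Control ASO arrays lay above control siRNA arrays without overlap in 12 of 18 cytosolic and 5 of 16 mitochondrial genes (16.0% of all probe sets). Lars measured 11.25 and 11.07 in control ASO arrays, against 10.86, 10.80 and 10.82 in control siRNA arrays, a difference of 0.33 (SE 0.07, adjusted p = 0.031). Iars measured 12.47 and 12.42 in control ASO arrays, against 12.10, 12.13 and 12.18 in control siRNA arrays (0.31, SE 0.06, adjusted p = 0.0177). Vars measured 10.73 and 10.74 in control ASO arrays, against 10.43, 10.39 and 10.51 in control siRNA arrays (0.29, SE 0.06, adjusted p = 0.031). In all 3 genes the groups were apart. Wars (0.29, adjusted p = 0.0137) and Yars (0.25, adjusted p = 0.0465) were the other genes called. Beside their mitochondrial counterparts, the cytosolic genes had the higher difference in 11 of 12 pairs, the exception being Mars at 0.20 and Mars2 at 0.21. These calls rest on few arrays, since 0 of 18 were called without control ASO replicate 1 or without control siRNA replicate 1, 1 without control ASO replicate 2 or control siRNA replicate 2, 2 without control siRNA replicate 3, 3 without Pint ASO replicate 1 or p53 siRNA replicate 2 or 3, and 0 when the control arrays were fitted alone. The comparison of controls shares its arrays with both knockdown comparisons, and the ASO and siRNA transfections cannot be told apart from any other difference between the arms. In these 5 genes the log2 fold change with Pint ASO against control ASO lay between 0.28 (Wars) and 0.41 (Vars), and that with p53 siRNA against control siRNA between 0.05 (Iars) and 0.38 (Vars).

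Other genes of the integrated stress response moved alongside the cytosolic synthetases. This list was written with earlier results of these data known, so its counts are a description. Of 25 such genes outside the synthetases, 23 were higher with Pint ASO and 0 lower, where 8.49% of all probe sets tested were higher and 10.7% lower. Their median log2 fold change was 0.48, and Cth (1.04), which makes cysteine from cystathionine, Slc7a1 (0.93), an importer of arginine and lysine, Ppp1r15a (0.88), which restores translation after stress, and Chac1 (0.84), which breaks down glutathione, had the largest changes among them. Atf4 itself was 0.28 higher (SE 0.06, adjusted p = 0.00681). With p53 siRNA, 10 of the 25 were higher and 4 lower (7.97% and 8.96% of all probe sets), with a median of 0.16, the 4 being Sesn2, Ddit4, Slc7a11 and Ppp1r15a. Between the controls, 16 of the 25 were higher in control ASO and 0 lower, with a median of 0.36, where 2.29% of all probe sets were higher. Their per-array mean was 11.32, 11.36 and 11.31 in Pint ASO arrays, against 10.85 and 10.77 in control ASO arrays, and 10.47, 10.50 and 10.49 in p53 siRNA arrays, against 10.42, 10.40 and 10.40 in control siRNA arrays. The part of this response in the changes of the synthetases was not tested.

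Other genes of tRNA supply and translation were counted in the same way, beside 8.49% of all probe sets higher and 10.7% lower with Pint ASO and 7.97% higher and 8.96% lower with p53 siRNA. Of 16 genes for RNA polymerase III, which transcribes tRNA genes, and its factors, 6 were higher with Pint ASO and 2 lower. Bdp1 (0.63), a subunit of the initiation factor TFIIIB, and Polr3d (0.42) rose most, and Maf1, the repressor of this polymerase, fell by 0.24. Gtf3c1 was the other gene called lower with Pint ASO (-0.19, adjusted p = 0.0488 in limma). With p53 siRNA 0 of these 16 were higher and 2 lower, Gtf3c1 (-0.69) and Polr3d (-0.21). Of 17 cytosolic translation factors, 4 were higher with Pint ASO and 0 lower (Eif2s2 at 0.31, Eif5 at 0.25, Eif3a at 0.23 and Eif3c at 0.22). Of 20 mitochondrial translation and tRNA-processing factors, 2 were higher with Pint ASO, namely Pus1 (0.42), a tRNA pseudouridine synthase, and Elac2 (0.36), which trims the 3′ end of tRNAs, and 1 was lower, Mtrf1 (-0.26), shares near or below those of all probe sets. Among 6 partners and editing factors, the scaffold Aimp2 was higher with Pint ASO (0.27) and with p53 siRNA (0.37), and Aarsd1 and Dtd1, which act in clearing mischarged tRNAs, were higher with p53 siRNA (0.23 each).

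**Figure D5:**
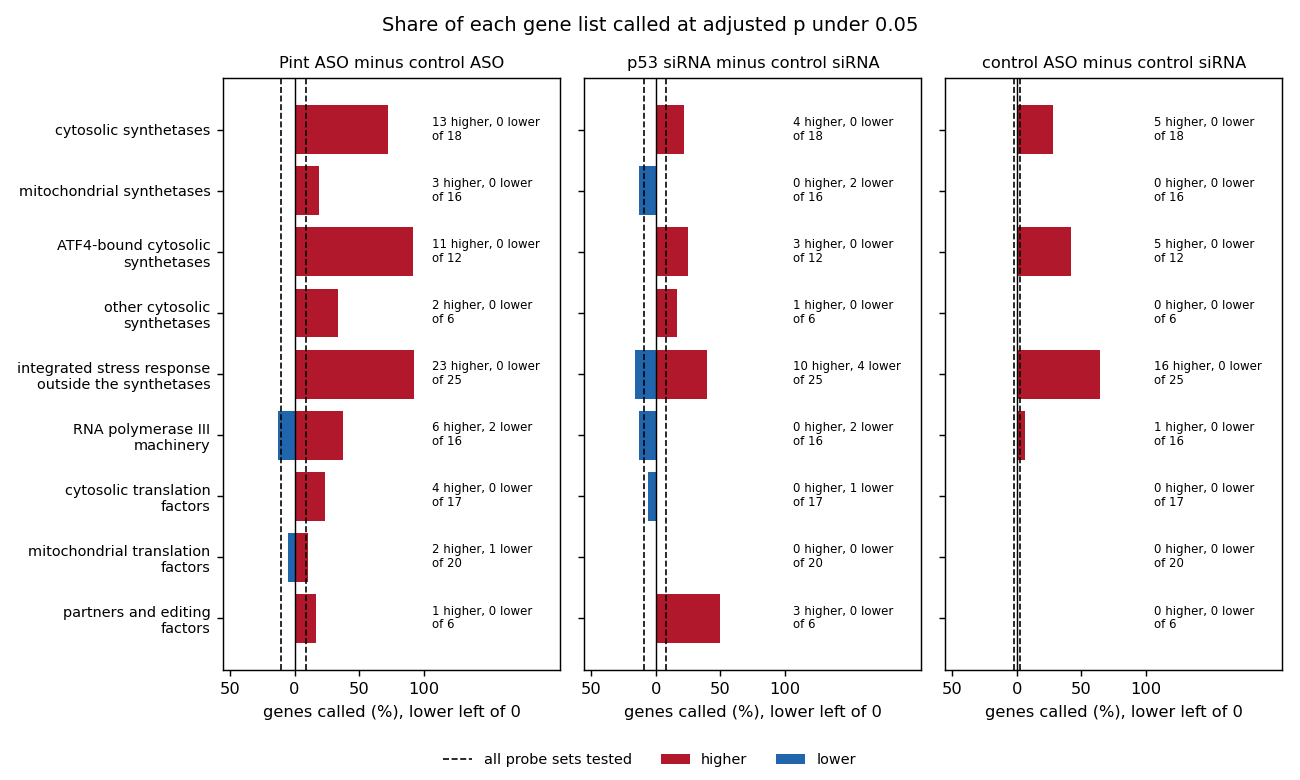
Share of each gene list called at an adjusted p under 0.05 (horizontal axis, percent), higher to the right of 0 in red and lower to the left in blue, in 3 comparisons, with the shares over all probe sets tested as dashed lines. Cytosolic synthetases (13 of 18) and the stress response genes outside them (23 of 25) lie far to the right with Pint ASO, and the mitochondrial sets lie closer to the dashed lines. The lists were chosen with earlier results of these data known.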

How the data were processed

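RNA of 11 samples was measured on Affymetrix whole-transcript arrays from 300 ng of total RNA. The deposited values are log2 intensities that the authors made with RMA (which corrects background, scales arrays to each other and summarizes each probe set), its version not given in the sources used here. Array medians lay between 7.31 and 7.38. The main and supplementary methods name different array models. Of 34760 probe sets, 21640 carry 1 gene symbol in the platform annotation, and none was named from several. The 26038 probe sets tested exceeded a log2 value of 6 (64 before the logarithm) in 2 or more arrays of any group. A gene with more than 1 probe set is shown by the brightest.

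One linear model of the 4 group means was fitted with limma 3.58.1 (R 4.3.3, eBayes without trend). Genes were called at a p under 0.05 after Benjamini-Hochberg adjustment across the tested probe sets. The code was tested on simulated data. The number of arrays limits the precision, and p-values cover only the spread between arrays, which may be technical. Members, lists and tests were chosen with earlier results of these data known. By a rule on the largest absolute change, up to 6 called genes per class were to be given with all array values for Pint ASO, 4 for p53 siRNA and 3 between controls. Up to 4 called genes were named per other list. For Pint ASO, Eprs was given with array values in place of Yars, both with a change of 0.36 after rounding. Atf4, Maf1, Nars2 and the value of Gtf3c1 with Pint ASO were added after their values were seen. A planned comparison of protein sequences was not run. Alternatives covered the filter, the scaling, the model, the probe sets, a block on replicate numbers, a threshold of B over 3 and each array left out. The study reports its gene counts at B over 3. Its supplementary methods also name fold change cut-offs for each contrast, which were not applied here.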

Additional observations from a re-analysis of the deposited data

Results flagged for a closer look

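The effects of the knockdowns differed by the limma test of the difference (Pint ASO effect minus p53 siRNA effect) in 10 of the 34 genes. In cytosolic enzymes the difference was 0.80 for Cars, 0.43 for Rars, 0.42 for Tars, 0.34 for Iars, 0.27 for Gars, 0.25 for Farsa, 0.22 for Wars and -0.27 for Kars. In mitochondrial enzymes it was 0.63 for Mars2 and 0.25 for Lars2. The adjusted p was 0.000332 for Cars and 0.00102 for Mars2, and lay between 0.0385 and 0.0476 for Kars, Gars, Wars and Farsa. Lars2 differed through its fall with p53 siRNA (-0.22), since its value with Pint ASO was 0.03. The call of Wars was lost without any 1 array, and that of Farsa in 10 of 11 such cases. That of Gars was lost in 9 of 11, and that of Lars2 in 5 of 11.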

How the results depend on the processing

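Every called fold change of a named gene kept its direction under all alternatives run. Cars with Pint ASO stayed called under all of them. Iars, Rars, Tars, Vars and Mars2 with Pint ASO, and Vars, Eprs and Lars2 with p53 siRNA, stayed called under all except B over 3. By the brightest probe set of each gene, Cars was the only gene called under B over 3. The second probe set of Iars also passed that threshold with Pint ASO (B of 3.34). With each array left out in turn, cytosolic genes called ranged from 8 to 12 with Pint ASO, 2 to 5 with p53 siRNA, 3 to 6 between the effects and 0 to 5 between controls, and mitochondrial genes from 1 to 3, 1 to 2, 1 to 3 and 0 to 0. Counted by the brightest probe sets, B over 3 left 1 cytosolic and 0 mitochondrial genes with Pint ASO and 0 and 0 with p53 siRNA. It left 1 and 0 between the effects, and 0 cytosolic genes between controls. Fits on the compared groups alone called 5 cytosolic and 1 mitochondrial genes with Pint ASO and 0 cytosolic genes between controls. Without the filter, 1 mitochondrial gene was called with p53 siRNA, 4 cytosolic genes between the effects and 2 between controls. Median centring gave 1 mitochondrial gene with p53 siRNA, 4 cytosolic and 1 mitochondrial genes between the effects. A second quantile normalization gave 1 mitochondrial gene with p53 siRNA, testing probe sets with 1 symbol gave 4, and array weights gave 4, with 3 cytosolic genes between controls. With trend and robust moderation, 1 mitochondrial gene was called between the effects. The causes were not tested.

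In the siRNA arms, same-numbered arrays did not deviate together (correlations of -0.284, -0.181 and -0.0371). Control ASO arrays carry other numbers in titles than in descriptions, and in the ASO arms, which allow only 2 pairs, the correlations were -0.0463 and -0.420 by title number and 0.420 and 0.375 by description number. The labels do not say what a number marks, and replicate numbers were not used as pairs. With a block by title number, 10 cytosolic genes were called with Pint ASO, 2 with p53 siRNA, 3 between the effects (and 1 mitochondrial) and 1 between controls. With a block by description number these counts were 13, 4, 4 (and 2 mitochondrial) and 2, against 13, 4, 8 (and 2 mitochondrial) and 5 without a block. Ears2 was not called with Pint ASO under either block (adjusted p of 0.121 by title and 0.107 by description number).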
